A study of Mus musculus with 10 samples.

Results

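Chromatin accessibility was described at the genes of 8 receptor subunits for interleukin-12 (Il12rb1, Il12rb2), interleukin-18 (Il18r1, Il18rap), interleukin-33 (Il1rl1), interleukin-25 (Il17rb) and interleukin-6 (Il6ra, Il6st) in thymic invariant natural killer T (iNKT) cells. Their regions were the accessible regions of the deposited table that overlapped the gene body or lay within 50 kb of the gene's transcription start. This rule took 164 of 94823 regions: 30 for Il12rb1, 25 for Il12rb2, 24 for Il18r1, 25 for Il18rap, 29 for Il1rl1, 21 for Il17rb, 29 for Il6ra and 18 for Il6st. The rule used position alone. Il1rl1, Il18r1 and Il18rap lie side by side on chromosome 1, so 24 regions were assigned to more than 1 of the 8 genes, and such regions are counted for each gene but once in the total. A region within the window can belong to a neighbour: the member's own start was the nearest protein-coding start for 5 of the 30 Il12rb1 regions, 21 of the 25 of Il12rb2, 15 of the 24 of Il18r1, 12 of the 25 of Il18rap, 14 of the 29 of Il1rl1, 7 of the 21 of Il17rb, 17 of the 29 of Il6ra and all 18 of Il6st.

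Cytokine receptors of these families decide which inflammatory signals a lymphocyte can hear. Interleukin-12 and interleukin-18 act together on cells of the interferon-gamma type, through Jak2, Tyk2 and Stat4 for the first and through Myd88 and Irak kinases for the second. Interleukin-25 and interleukin-33 are epithelial alarm signals of type 2 immunity, and interleukin-6 signals through Stat3 by way of a private receptor chain and the shared chain gp130. Among thymic iNKT cells, the iNKT1 subset makes interferon-gamma and the iNKT2 subset makes interleukin-4.

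The assay was ATAC-seq, where a transposase cuts and tags accessible DNA. Cells came from the thymus of BALB/c mice and of SKG mice, which carry a germline hypomorphic Zap70 allele on the BALB/c background, so that T cell receptor signalling is weak in every T cell and not only in iNKT cells. No mouse received an agent, and the library labels give no age or sex. There were 10 libraries in 4 groups, with n = 2 for iNKT1 of each genotype, BALB/c and SKG, and n = 3 for iNKT2 of each. By the study's methods iNKT1 cells were sorted as CD27+ CD122+ and iNKT2 cells as CD27+ CD122-, where CD122 is the product of Il2rb, itself a cytokine receptor chain. The labels do not say that replicates were separate mice or sorts, so p-values measure the spread between these libraries, which may be technical.

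Insertions inside the regions totalled 14988590 to 36342635 a library. Values are given as CPM, counts of insertions relative to the library total scaled with TMM factors over all regions, and a region was called at an adjusted p under 0.01 with a change of at least 4-fold in edgeR's quasi-likelihood test. Replicate 1 stood apart in iNKT2 of both genotypes: the chi-square per degree of freedom against the other replicates was 8.08 to 11.7, against 2.36 to 3.28 in every other pair. The regions at the start of each of the 5 iNKT1 markers, or nearest to it for 1 of them, summed to 205 to 232 CPM in the iNKT1 libraries and 46.9 to 65.9 CPM in the iNKT2 libraries, whereas those of the iNKT2 markers, again with 4 of 5 at a start, overlapped, with 61.3 to 69.1 CPM in iNKT1 and 55.5 to 102 CPM in iNKT2. Of the iNKT17 markers, 4 with a region at the start (Il23r, Ccr6, Il17a and Il1r1) summed to 0.128 to 0.642 CPM in iNKT1 and 12.3 to 19.6 CPM in iNKT2 libraries. These markers of iNKT17 cells therefore moved with the regions higher in iNKT2, and their part in those results was not tested. The lists for immature thymocytes and B cells had no region at a start, and their nearest regions summed to 24.1 to 42.0 CPM and 14.1 to 25.1 CPM over the libraries, the first highest in SKG iNKT1. The myeloid list, with 1 of 4 genes at a start, ran from 8.13 to 20.1 CPM and its sum was the higher in iNKT1. Most of that sum was Spi1, with means of 16.6 and 15.4 CPM in BALB/c and SKG iNKT1. In BALB/c and SKG iNKT2 Spi1 had 6.75 and 6.66 CPM. Itgam was also higher in iNKT1, but Csf1r and Lyz2 went the other way. In the same order their means were 1.15, 1.38, 2.14 and 1.58 CPM for Csf1r and 0.149, 0.128, 1.14 and 0.444 CPM for Lyz2. The T cell list, with 2 of 3 at a start, was also higher in iNKT1, with 58.5 to 66.2 CPM against 32.0 to 56.1 CPM in iNKT2.

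The sequences of 5 regions and 2 promoters are shown because the contrasts below turn on them. They are from the GRCm38 reference, which is of another strain than these mice, so alleles of the BALB/c background are not shown. Each is the central 300 bases of its region on the plus strand, in lower case, with matches to short motifs of transcription factors in capitals. In the first, inside an Il12rb2 intron at chr6:67367185-67367484, the capitals mark an AP-1 match (TGANTCA). In the second, between Il18r1 and Il18rap at chr1:40501350-40501649, they mark a Tcf match (CTTTGAT). In the third, upstream of Il17rb in an intron of Chdh at chr14:30024400-30024699, they mark a Gata match, AGATAA read on the minus strand. In the fourth, upstream of Il1rl1 at chr1:40393247-40393546, they mark an AP-1 and a Runx match (TGTGGTT). In the fifth, in an Il6ra intron at chr3:89892456-89892755, they mark 3 NFAT matches (TGGAAA on the minus strand). They also mark 2 overlapping Egr matches (GTGGGNG) and 1 Gata match on the minus strand.
Il12rb2 intron: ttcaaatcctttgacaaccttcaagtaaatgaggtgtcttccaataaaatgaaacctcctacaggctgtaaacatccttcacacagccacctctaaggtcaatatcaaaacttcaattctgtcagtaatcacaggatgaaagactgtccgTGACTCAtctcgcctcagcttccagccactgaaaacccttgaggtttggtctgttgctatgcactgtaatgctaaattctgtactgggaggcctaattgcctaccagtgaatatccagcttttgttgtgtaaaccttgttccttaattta
Il18r1 to Il18rap interval: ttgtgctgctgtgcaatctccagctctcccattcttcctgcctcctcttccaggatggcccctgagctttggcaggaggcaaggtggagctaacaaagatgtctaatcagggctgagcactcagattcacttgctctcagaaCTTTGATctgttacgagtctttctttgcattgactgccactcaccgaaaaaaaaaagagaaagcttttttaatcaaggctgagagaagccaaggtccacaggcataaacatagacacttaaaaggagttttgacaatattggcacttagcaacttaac
Il17rb upstream: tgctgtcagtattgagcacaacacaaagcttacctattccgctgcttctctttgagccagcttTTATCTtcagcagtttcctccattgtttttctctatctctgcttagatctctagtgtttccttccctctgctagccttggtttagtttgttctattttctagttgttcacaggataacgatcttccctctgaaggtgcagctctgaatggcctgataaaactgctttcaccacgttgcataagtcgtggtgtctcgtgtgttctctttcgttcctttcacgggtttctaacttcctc
Il1rl1 upstream: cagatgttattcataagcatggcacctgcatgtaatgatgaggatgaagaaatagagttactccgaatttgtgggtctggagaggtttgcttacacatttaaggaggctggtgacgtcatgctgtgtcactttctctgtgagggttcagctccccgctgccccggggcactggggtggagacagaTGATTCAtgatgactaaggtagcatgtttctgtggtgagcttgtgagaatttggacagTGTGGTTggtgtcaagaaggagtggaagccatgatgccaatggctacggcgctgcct
Il6ra intron: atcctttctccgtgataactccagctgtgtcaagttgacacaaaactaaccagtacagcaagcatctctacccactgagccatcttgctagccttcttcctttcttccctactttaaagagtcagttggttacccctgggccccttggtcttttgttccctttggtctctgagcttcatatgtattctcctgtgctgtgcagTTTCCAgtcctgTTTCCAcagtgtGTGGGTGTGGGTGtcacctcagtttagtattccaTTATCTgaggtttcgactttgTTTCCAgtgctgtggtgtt

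The promoters of Il12rb2 and Il17rb, which moved in opposite directions between the subsets, are shown on the minus strand, on which both genes are read, from RefSeq on GRCm38.p6. Of the 8 genes, 7 had an entry in the promoter table. The Il12rb2 window, chr6:67376139-67376438, held a Stat match (TTCNNNGAA) and an NF-kB match (GGGANTTCC). The Il17rb window, chr14:30008847-30009146, held an AP-1 and an Egr match.
Il12rb2 promoter: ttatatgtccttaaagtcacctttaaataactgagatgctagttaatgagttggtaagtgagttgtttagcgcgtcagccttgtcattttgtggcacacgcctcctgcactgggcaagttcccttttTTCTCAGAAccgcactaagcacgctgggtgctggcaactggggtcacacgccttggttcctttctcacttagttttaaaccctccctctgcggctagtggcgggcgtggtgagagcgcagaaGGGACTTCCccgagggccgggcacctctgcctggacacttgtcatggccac
Il17rb promoter: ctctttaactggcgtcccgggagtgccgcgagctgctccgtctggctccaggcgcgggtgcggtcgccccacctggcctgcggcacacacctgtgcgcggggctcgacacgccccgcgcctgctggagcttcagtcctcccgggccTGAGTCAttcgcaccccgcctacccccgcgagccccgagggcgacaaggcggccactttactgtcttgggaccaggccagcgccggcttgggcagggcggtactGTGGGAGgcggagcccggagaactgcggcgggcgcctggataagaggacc

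These matches describe letters, not binding. Among the central 300 bases of all regions, on either strand, 10.6% held the AP-1 letters, 5.74% the Tcf letters, 14.3% the Gata letters, 13.2% the Runx letters, 23.4% the NFAT letters and 28.7% the Egr letters. Among all RefSeq promoter windows, 8.30% held the Stat letters, 1.68% the NF-kB letters, 7.81% the AP-1 letters and 31.6% the Egr letters. The T-box letters (AGGTGTGA) and the Ets letters (CCGGAAGT) were searched too, and 1.91% and 1.65% of all regions held them. At the receptor genes, the Egr letters stood in 12 of the 35 regions called higher in BALB/c iNKT2, in 3 of the 25 called lower and in 39 of the 104 not called. The NF-kB letters, which 1.67% of all regions held, stood in 0 of the 35, 3 of the 25 and 1 of the 104, and the T-box letters in 0, 1 and 4. In the same order the NFAT letters stood in 8, 5 and 18, the Runx letters in 5, 5 and 16 and the AP-1 letters in 3, 4 and 16. The Gata letters stood in 6, 2 and 15 and the Tcf letters in 3, 0 and 6. None of these splits was tested.

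To ask how the receptor genes differ between the subsets, iNKT2 was first compared with iNKT1 in BALB/c mice. Il17rb and Il6ra were more open in iNKT2, with 15 of 21 and 16 of 29 regions called higher and none lower. Il12rb2 and Il18rap were more open in iNKT1, with 13 of 25 and 7 of 25 regions called lower in iNKT2. Il1rl1 had calls both ways, 2 higher and 4 lower, and Il18r1 had 1 higher and 2 lower, all 3 of which lay nearer to the start of a neighbouring receptor gene. Il6st had 1 region called each way and Il12rb1, although it had the most regions, had none. Over the 164 regions, 35 were called higher and 25 lower, against 15.5% and 6.36% of all regions in the table. The median log2 change was -0.19 over the receptor regions and 0.06 over all regions, and scaling to library totals moved these to 0.10 and 0.34, so the sign of the first is not settled. By the adjusted p alone 44 were higher and 59 lower, against 25.7% and 23.4% of all regions. Under quantile normalization the calls were 23 higher and 29 lower, against 9.54% and 9.46%. With replicate 1 of iNKT2 left out in both genotypes, an alternative chosen after seeing the data, they were 34 higher and 32 lower. The share of all regions was not computed for that alternative. In sorted pools, a change in every cell and a change in the mix of cells cannot be told apart. The study listed Il17rb and Il6ra among its subset signature genes from these same libraries, so their direction is not independent evidence.

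The same comparison in SKG mice uses other libraries. There 32 receptor regions were called higher in iNKT2 and 24 lower, against 10.2% and 6.96% of all regions, with a median log2 change of 0.05 against 0.14 over all regions. At the adjusted p alone 46 were higher and 46 lower, against 18.4% and 17.6% of all regions. Under quantile normalization 17 were called higher and 24 lower, against 4.48% and 7.39%. Without both replicate 1 iNKT2 libraries 28 and 29 were called, with no share of all regions computed. Of the 35 regions called higher in BALB/c, 27 (77.1%) were also called higher in SKG, and these made up 84.4% of the SKG calls. Of the 25 called lower, 20 (80.0%) were also called lower in SKG, which was 83.3% of the SKG calls. No receptor region was called in opposite directions, and the sign in SKG was that of BALB/c for all 60 called regions. This was near the whole table, where the sign was kept for 14125 of 14725 higher and 5989 of 6029 lower calls. There 4 of the higher and 0 of the lower calls were opposite in SKG. Over the whole table the corresponding shares of BALB/c calls were 49.3% and 76.0%, and those of SKG calls were 75.2% and 69.5%. By gene, SKG iNKT2 had 15 of 21 Il17rb regions and 12 of 29 Il6ra regions higher. It had 14 of 25 Il12rb2 regions and 5 of 25 Il18rap regions lower. At Il18rap 1 region was called higher, chr1:40542824-40543158 (log2 change 2.28, adjusted p = 0.0011).

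**Figure D1:**
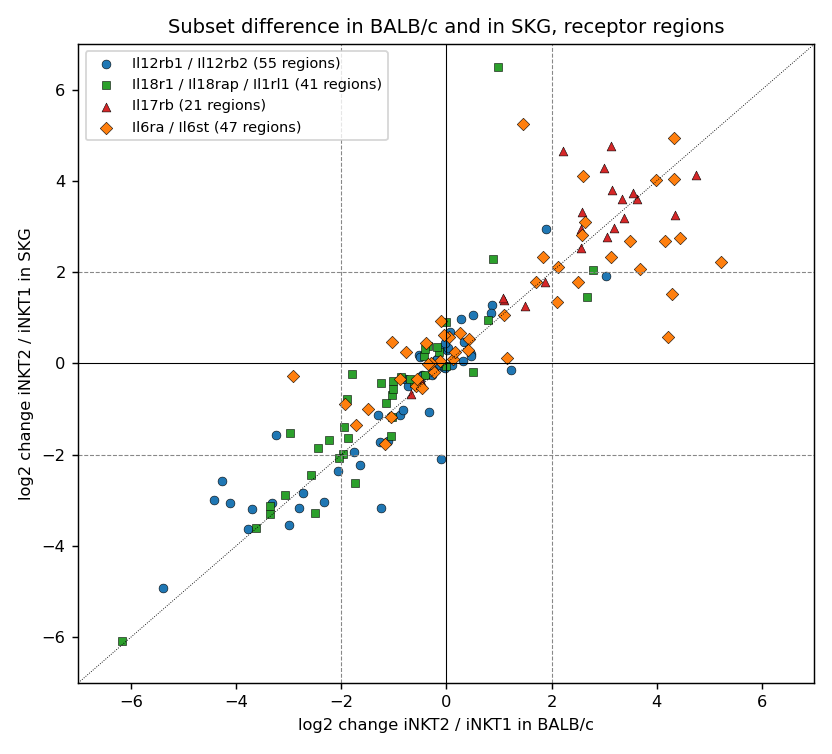
Log2 change from iNKT1 to iNKT2 in BALB/c mice (horizontal axis) and in SKG mice (vertical axis) for each of the 164 receptor regions, coloured by receptor family. Points of Il17rb and Il6ra lie mostly in the upper right and those of Il12rb2 in the lower left, and the point at 6.49 in SKG had 0 insertions in both SKG iNKT1 libraries, so that its fitted value is no bound.

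**Figure D2:**
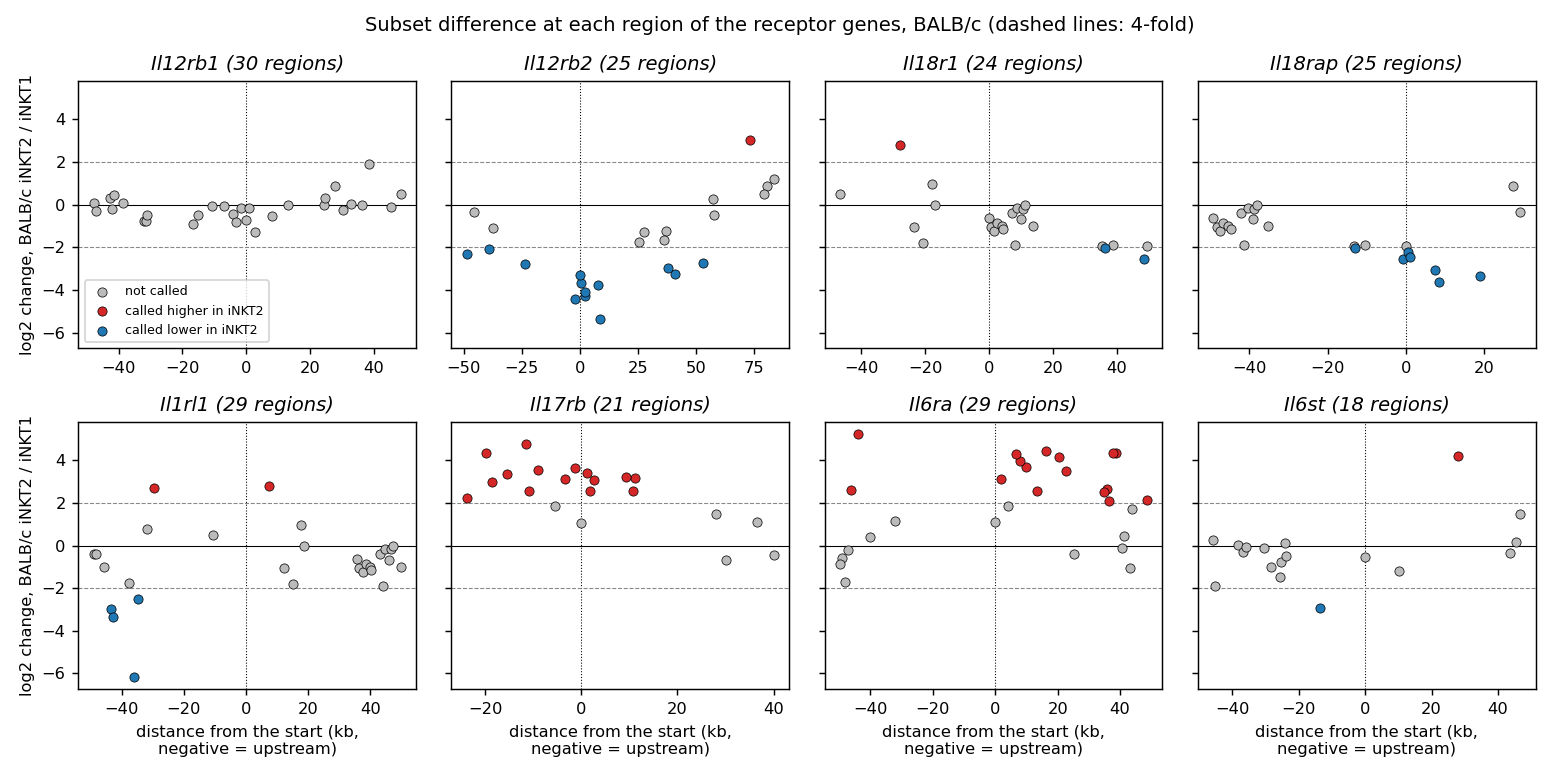
Log2 change from BALB/c iNKT1 to BALB/c iNKT2 of each region (vertical axis) against its signed distance in kb from the gene's start (horizontal axis), 1 panel a gene, with called regions marked. Regions of Il12rb2 lie mostly below 0 on both sides of the start, those of Il17rb and Il6ra lie mostly above 0, and the low Il1rl1 regions are a group upstream.

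The signalling chain of the interleukin-12 receptor, Il12rb2 (chr6:67291318-67376188, minus strand), carried the most regions lower in iNKT2. All 7 of its regions within 10 kb of the start were called lower in BALB/c and all 7 in SKG. The region at the start, chr6:67375721-67376473, had 75.3 and 79.2 CPM in BALB/c iNKT1, 93.0 and 92.6 CPM in SKG iNKT1, 11.1, 6.75 and 5.24 CPM in BALB/c iNKT2, and 14.6, 8.40 and 9.98 CPM in SKG iNKT2. Every iNKT1 library lay above every iNKT2 library. The log2 change from iNKT1 to iNKT2 was -3.32 (SE 0.25, adjusted p = 4.9e-08) in BALB/c and -3.06 (adjusted p = 1.3e-07) in SKG. The smallest p of the locus was at the intronic region chr6:67367153-67367518, 8670 bp into the gene, whose centre with its AP-1 letters is printed above. It had 20.9 and 20.7 CPM in BALB/c iNKT1, 21.3 and 19.0 CPM in SKG iNKT1, 0.753, 0.291 and 0.453 CPM in BALB/c iNKT2 and 0.802, 0.505 and 0.607 CPM in SKG iNKT2. The groups of the subsets were far apart and the genotypes overlapped. This change was -5.39 on the log2 scale (SE 0.27, adjusted p = 4.0e-09), or 41.8-fold, in BALB/c and -4.93 (adjusted p = 8.7e-09) in SKG.

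The lower regions of Il12rb2 reached upstream as far as 48656 bp, where chr6:67424844-67425177 lies in an intron of Il23r, and a region 23380 bp upstream fell by 2.80 on the log2 scale in BALB/c and 3.16 in SKG. At the other end of the gene, 73349 bp from the start and nearest to Serbp1, 1 intronic region was called higher, with 0.926 and 0.485 CPM in BALB/c iNKT1 against 6.27, 6.27 and 5.57 CPM in BALB/c iNKT2 (log2 change 3.04, adjusted p = 3.0e-06). It was not called in SKG, where its log2 change was 1.91 (adjusted p = 5.1e-04), just under 4-fold.

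The shared chain Il12rb1 (chr8:70808449-70821424), which also serves the interleukin-23 receptor, had no called region in BALB/c. The region at its start, chr8:70808229-70808553, had 8.84 and 7.27 CPM in BALB/c iNKT1, 8.54 and 5.97 CPM in SKG iNKT1, 4.89, 4.66 and 5.07 CPM in BALB/c iNKT2, and 5.53, 5.51 and 4.38 CPM in SKG iNKT2. All iNKT2 libraries were below all iNKT1 libraries, by a smaller step than at Il12rb2. The log2 change was -0.73 (SE 0.20, adjusted p = 0.0057) in BALB/c and -0.49 (adjusted p = 0.071) in SKG. The smallest p at this gene in BALB/c was 31442 bp upstream at chr8:70776437-70777007, with a log2 change of -0.78 (adjusted p = 8.5e-05). In SKG 1 region was called higher and 1 lower, 38398 and 45380 bp downstream, nearest to the starts of Arrdc2 and Kcnn1.

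Il18r1 (chr1:40465552-40500854), the chain that binds interleukin-18, differed by a small step at its start. The region chr1:40465445-40466061 had 39.0 and 30.1 CPM in BALB/c iNKT1, 34.7 and 37.3 CPM in SKG iNKT1, 25.2, 22.1 and 20.7 CPM in BALB/c iNKT2, and 27.0, 28.3 and 24.3 CPM in SKG iNKT2. The iNKT2 values were the lower ones without overlap, and the log2 changes were -0.61 (SE 0.15, adjusted p = 0.0020) in BALB/c and -0.44 (adjusted p = 0.023) in SKG. None of the 9 regions within 10 kb of this start was called in either genotype. Leaving out BALB/c iNKT2 replicate 1 raised the Il18r1 regions called lower from 2 to 7.

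Il18rap (chr1:40515362-40551705), the accessory chain needed for signalling, had 7 regions called lower in BALB/c iNKT2, 5 of them among its 6 regions within 10 kb of the start. Leaving out BALB/c iNKT2 replicate 1 raised this count from 7 to 11. The region at the start, chr1:40515113-40515863, had 43.0 and 39.3 CPM in BALB/c iNKT1, 43.7 and 42.2 CPM in SKG iNKT1, 12.5, 10.5 and 8.78 CPM in BALB/c iNKT2, and 19.9, 13.4 and 15.8 CPM in SKG iNKT2. The subsets did not overlap, and the log2 change of -1.96 (SE 0.17, adjusted p = 2.3e-07) in BALB/c was just under 4-fold, as against -1.39 (adjusted p = 9.4e-06) in SKG. Further in, at 8583 bp, chr1:40523945-40524638 was called in both genotypes, with 20.1 and 19.5 CPM in BALB/c iNKT1 and 2.76, 1.19 and 0.825 CPM in BALB/c iNKT2 (log2 change -3.61, adjusted p = 7.9e-06).

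The smallest p of both interleukin-18 receptor genes in BALB/c was at 1 region between them, chr1:40500992-40502008, 13354 bp before the Il18rap start, which is the region with the Tcf letters printed above. It had 61.6 and 62.8 CPM in BALB/c iNKT1, 67.8 and 64.9 CPM in SKG iNKT1, 17.5, 15.4 and 14.97 CPM in BALB/c iNKT2 and 17.1, 17.3 and 16.2 CPM in SKG iNKT2. Replicates were close and the subsets were far apart. The log2 change was -1.96 (SE 0.12, adjusted p = 1.2e-08) in BALB/c and -1.98 (adjusted p = 1.9e-08) in SKG. At 3.89-fold in BALB/c it was not called, while the adjoining region chr1:40502032-40502376 was, with a log2 change of -2.05.

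Il1rl1 (chr1:40429570-40465415), which encodes the interleukin-33 receptor ST2, had no region at its start. The nearest, the intronic region chr1:40437049-40437651, was 7479 bp into the gene and had 0.418 and 0.617 CPM in BALB/c iNKT1, 0.193 and 0.385 CPM in SKG iNKT1, 2.98, 3.52 and 4.12 CPM in BALB/c iNKT2, and 1.52, 0.873 and 1.15 CPM in SKG iNKT2. BALB/c iNKT2 was highest and SKG iNKT2 next, and the iNKT1 groups were far lower. The log2 change between subsets was 2.79 (SE 0.37, adjusted p = 1.1e-05) in BALB/c and 2.04 (adjusted p = 0.0027) in SKG. A second region, 29554 bp upstream, rose by 2.68 on the log2 scale in BALB/c (adjusted p = 2.8e-07) and by 1.46 in SKG (adjusted p = 1.6e-04), where it was not called.

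In the same upstream interval, 34690 to 43593 bp before the Il1rl1 start and with that start as the nearest, 4 regions were called lower in BALB/c iNKT2. The one with the smallest p, chr1:40393237-40393557, shown above with its AP-1 and Runx letters, had 22.0 and 18.9 CPM in BALB/c iNKT1 and 3.21 and 5.13 CPM in SKG iNKT1. In iNKT2 it had 0.596, 0.0794 and 0.165 CPM in BALB/c and 0.0594, 0.0459 and 0.0674 CPM in SKG. It was open in iNKT1 and under 1 CPM in every iNKT2 library, with a log2 change of -6.17 (SE 0.40, adjusted p = 1.6e-08) in BALB/c and -6.08 (adjusted p = 8.3e-07) in SKG. A neighbour, chr1:40386137-40386707, had 29.9 and 25.3 CPM in BALB/c iNKT1 and 4.74, 1.98 and 1.28 CPM in BALB/c iNKT2 (log2 change -3.36, adjusted p = 9.5e-07). The count of 4 was 2 when BALB/c iNKT1 replicate 1 was left out and rose to 7 when replicate 1 of BALB/c iNKT2 was.

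Il17rb (chr14:29996135-30008896, minus strand), the chain that gives interleukin-25 its specificity, had 7 of its 9 regions within 10 kb of the start called higher in BALB/c and 7 in SKG. The region at its start, chr14:30008569-30009566, also covers the start of Chdh, a choline dehydrogenase gene, and the calls upstream lie in Chdh. It had 9.26 and 6.83 CPM in BALB/c iNKT1, 7.13 and 6.74 CPM in SKG iNKT1, 15.1, 18.0 and 18.2 CPM in BALB/c iNKT2, and 18.9, 18.8 and 18.8 CPM in SKG iNKT2. The subsets did not overlap, and the log2 change was 1.08 (SE 0.17, adjusted p = 7.0e-05) in BALB/c and 1.44 (adjusted p = 1.1e-05) in SKG, short of 4-fold.

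The smallest p of the Il17rb locus was 15415 bp upstream at chr14:30024311-30024790, the region with the Gata letters above. It had 3.20 and 2.42 CPM in BALB/c iNKT1, 3.47 and 3.27 CPM in SKG iNKT1, 28.0, 28.1 and 30.1 CPM in BALB/c iNKT2 and 40.9, 40.8 and 41.7 CPM in SKG iNKT2. Both iNKT2 groups were far above iNKT1, and every SKG iNKT2 library was above every BALB/c one. The change was 3.34 (SE 0.17, adjusted p = 4.0e-09) in BALB/c and 3.61 (adjusted p = 5.0e-09) in SKG on the log2 scale. Within the gene, chr14:29997333-29997796, 11100 bp from the start, rose by 3.15 and 3.80. The count of 15 held between 13 and 16 when any 1 library was left out, and was 9 under quantile normalization.

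Il6ra (chr3:89864059-89913196, minus strand), the chain that binds interleukin-6, had calls higher in iNKT2 along its introns, 14 of the 21 regions in the gene body in BALB/c and 11 in SKG. The region at its start, chr3:89912088-89913886, had 13.0 and 14.02 CPM in BALB/c iNKT1, 21.6 and 19.5 CPM in SKG iNKT1, 32.0, 26.6 and 27.6 CPM in BALB/c iNKT2, and 51.4, 41.5 and 36.1 CPM in SKG iNKT2. The 4 groups were in steps without overlap. The log2 change between subsets was 1.09 (SE 0.16, adjusted p = 3.9e-05) in BALB/c and 1.07 (adjusted p = 6.9e-05) in SKG. The smallest p in BALB/c was at the other end of the gene, chr3:89864159-89864514, in the 3′ UTR 48682 bp from the start, where She is the nearest start. Its values were 2.63 and 2.82 CPM in BALB/c iNKT1 and 9.66, 13.7 and 12.3 CPM in BALB/c iNKT2 (log2 change 2.13, adjusted p = 1.3e-06), and 2.11 in SKG.

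The larger changes of Il6ra were in introns that were nearly closed in iNKT1. At chr3:89892400-89892813, 20383 bp into the gene and printed above with its NFAT and Egr letters, BALB/c iNKT1 had 0.119 and 0.441 CPM and SKG iNKT1 had 0.193 and 0.128 CPM. BALB/c iNKT2 had 6.81, 3.54 and 3.67 CPM and SKG iNKT2 had 1.49, 0.873 and 0.674 CPM. The iNKT2 libraries were higher in both genotypes, with log2 changes of 4.16 (SE 0.52, adjusted p = 6.4e-06) in BALB/c and 2.69 (adjusted p = 0.0056) in SKG. A region 6545 bp into the gene rose in BALB/c by 4.29 on the log2 scale (adjusted p = 2.7e-05) and had a log2 change of 1.52 (adjusted p = 0.012) in SKG. The Il6ra count of 16 became 9 when regions in the lower quartile of mean insertions were left out.

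Il6st (chr13:112464070-112510086) encodes gp130, the signalling chain shared by the interleukin-6 family and made in most tissues. The region at its start, chr13:112463573-112464665, had 62.1 and 58.4 CPM in BALB/c iNKT1, 66.3 and 67.7 CPM in SKG iNKT1, 31.4, 42.4 and 49.5 CPM in BALB/c iNKT2 and 41.5, 58.4 and 58.6 CPM in SKG iNKT2. Values of SKG iNKT2 reached those of BALB/c iNKT1, and in both genotypes replicate 1 was the lowest of the iNKT2 libraries. The log2 change was -0.55 (SE 0.18, adjusted p = 0.014) in BALB/c and -0.35 (adjusted p = 0.12) in SKG, so neither passed. The smallest p was 25731 bp upstream at chr13:112437948-112438339, with 44.3 and 49.5 CPM in BALB/c iNKT1 and 19.7, 15.8 and 14.3 CPM in BALB/c iNKT2 (log2 change -1.49, adjusted p = 6.0e-07), and a log2 change of -0.998 (adjusted p = 4.6e-05) in SKG.

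**Figure D3:**
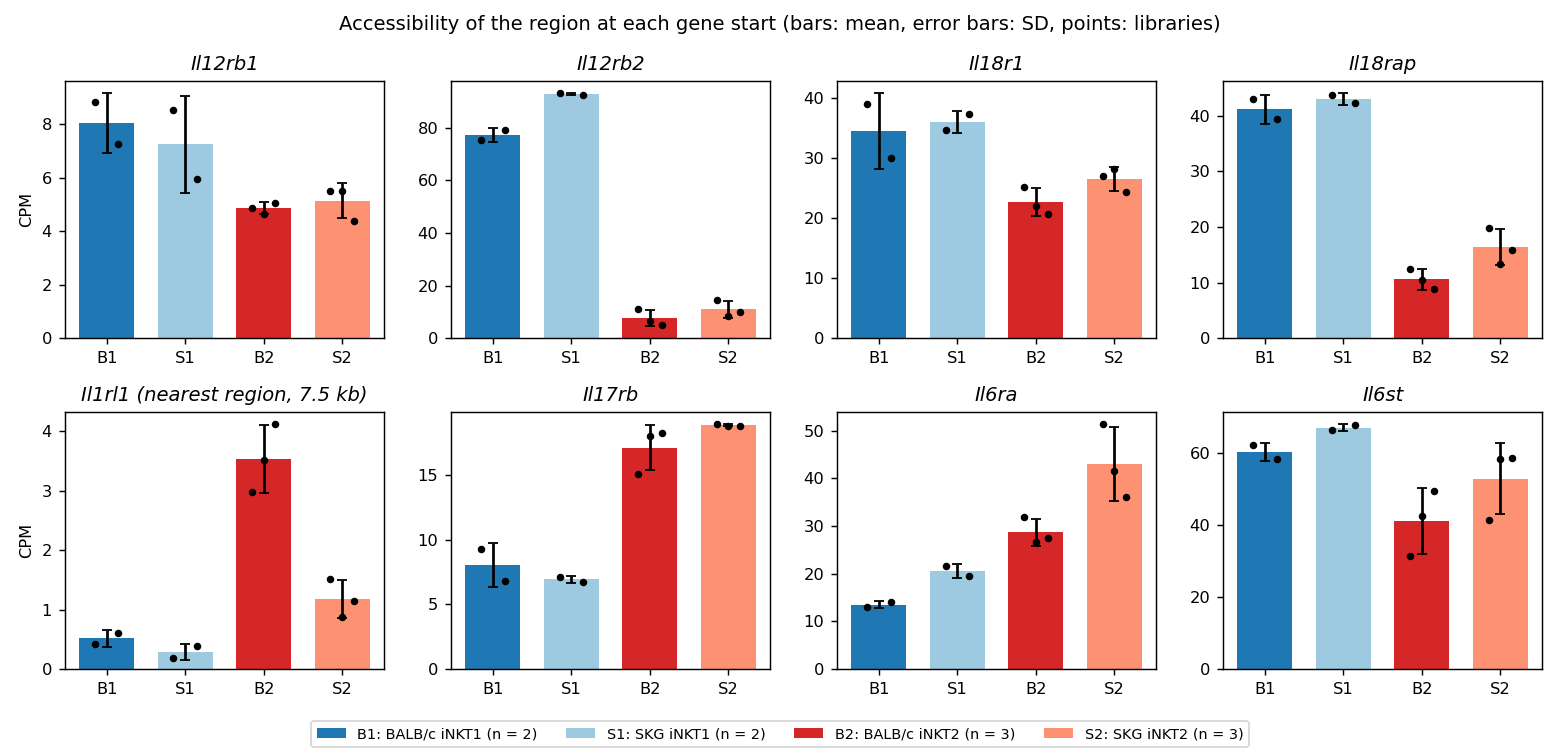
CPM (vertical axis) of the region at each gene's start in the 4 groups, with points for libraries, bars for the group mean and error bars for the SD; for Il1rl1 the nearest region, 7479 bp into the gene, is shown. Il12rb2 and Il18rap are higher in iNKT1, Il17rb and Il6ra are higher in iNKT2, and the Il12rb1, Il18r1 and Il6st starts differ by smaller steps.

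Summed over the regions nearest to each gene's own start, as a description with no test, Il12rb2 had 379 ± 14.5 CPM (SD, n = 2) in BALB/c iNKT1, 409 ± 12.3 CPM (SD, n = 2) in SKG iNKT1, 84.6 ± 15.1 CPM (SD, n = 3) in BALB/c iNKT2 and 78.6 ± 12.1 CPM (SD, n = 3) in SKG iNKT2. For Il17rb the sums were 9.86 ± 2.35, 9.05 ± 0.554, 32.0 ± 1.99 and 39.5 ± 1.60 CPM in the same order. For Il6ra they were 75.8 ± 1.03, 99.2 ± 8.25, 115 ± 12.8 and 158 ± 26.5 CPM. For Il1rl1 they were 158 ± 13.4, 103 ± 17.2, 79.1 ± 16.8 and 68.9 ± 13.4 CPM, which shows that the intron region higher in iNKT2 is a small part of that locus. A sum weighs wide and strong regions most, and levels of different genes are not comparable on this scale.

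The genotype comparison asks where weaker T cell receptor signalling goes with other accessibility in the same subset. In iNKT1, 0 receptor regions were called higher in SKG and 4 lower, against 0.281% and 0.732% of all regions. At the adjusted p alone 0 were higher and 5 lower, against 0.662% and 1.42%. At an unadjusted p under 0.05, 10 regions were higher and 26 lower, against 6.38% and 10.7%. DESeq2 called 1 higher and 3 lower, against 0.386% and 0.812%, and quantile normalization called 0 and 1, against 0.146% and 0.136%. In iNKT2, 0 were called higher and 4 lower, against 0.252% and 4.73%, and at the adjusted p alone 9 were higher and 8 lower, against 4.02% and 10.1%. At an unadjusted p under 0.05, 34 regions were higher in SKG iNKT2 and 25 lower, against 16.3% and 21.1%. Quantile normalization called 2 higher and 1 lower, against 1.24% and 3.66%. DESeq2 called 0 and 4, and the share of all regions was not computed for it in iNKT2. The median log2 change was -0.01 in iNKT1 and 0.14 in iNKT2, against -0.03 and 0.01 over all regions.

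In iNKT1 the 4 called regions were upstream of Il1rl1, in an Il1rl1 intron, in Il18rap and downstream of Il6st. The upstream Il1rl1 region chr1:40393237-40393557, whose values are given above, was lower in both SKG iNKT1 libraries than in either BALB/c one, with a log2 change of -2.29 (SE 0.36, adjusted p = 0.0016). The intronic region chr1:40444679-40445013 had 2.75 and 1.98 CPM in BALB/c iNKT1 and 0.257 and 0 CPM in SKG iNKT1 (log2 change -4.16, SE 0.86, adjusted p = 0.0097). Region chr1:40542824-40543158, in an Il18rap exon, had 2.84 and 2.25 CPM in BALB/c iNKT1 and 0.193 and 0.706 CPM in SKG iNKT1 (log2 change -2.50, SE 0.50, adjusted p = 0.0077). The groups did not overlap at any of these, which the call itself favours, but the last pair of regions had few insertions. Region chr13:112510809-112511173, 46739 bp past the Il6st start, had 1.52 and 1.19 CPM in BALB/c iNKT1 and 0 and 0.0642 CPM in SKG iNKT1. That was 78 insertions against 1, a ratio of 43.3 with a counting interval of 7.54 to 1730, and an adjusted p of 0.0019. None of the receptor regions was called lower when either SKG iNKT1 library or BALB/c iNKT1 replicate 1 was left out, and 1 was when BALB/c iNKT1 replicate 2 was left out. Without BALB/c iNKT2 replicate 2 or 3 the count was 2. At the remaining genes the smallest p in iNKT1 was at regions not called. The Il6ra region 6545 bp into the gene rose from 0.0896 and 0.176 to 0.899 and 1.73 CPM in SKG (log2 change 3.34, adjusted p = 0.013). The log2 change was -3.14 (adjusted p = 0.028) at Il17rb chr14:30032734-30033088 and -0.59 (adjusted p = 0.20) at Il12rb2 chr6:67317844-67318206. It was -2.95 (adjusted p = 0.074) at chr8:70836149-70836448 in the Il12rb1 window. The region nearest to Cd8b1, 1 of 4 markers of immature thymocytes, lay 3123 bp from its start. It had 0.478 and 1.68 CPM in BALB/c iNKT1 and 4.30 and 15.4 CPM in SKG iNKT1. The other markers did not follow it alike. Mean CPM in BALB/c and SKG iNKT1 was 0.696 and 0.353 for Rag1, 0.199 and 0.385 for Rag2 and 24.1 and 27.7 for Ptcra. The part of immature thymocytes in these differences was not tested.

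In iNKT2 the 4 called regions were at Il6ra, Il1rl1, Il12rb2 and Il12rb1. The Il6ra intron chr3:89892400-89892813 was lower in every SKG iNKT2 library than in any BALB/c one, by a log2 change of -2.13 (SE 0.37, adjusted p = 6.1e-04). It fell below 4-fold without BALB/c iNKT2 replicate 1, where its log2 change was -1.76, and without SKG iNKT2 replicate 3, where it was -1.95. At the Il1rl1 region chr1:40391398-40391802, 37768 bp upstream, BALB/c iNKT2 had 4.89, 1.61 and 1.69 CPM and SKG iNKT2 had 0.802, 0.230 and 0 CPM (log2 change -2.67, SE 0.60, adjusted p = 0.0042). At the Il12rb2 intron chr6:67338784-67339083, BALB/c iNKT2 had 1.19, 0.794 and 0.783 CPM and SKG iNKT2 had 0.297, 0.230 and 0.0674 CPM (log2 change -2.04, SE 0.44, adjusted p = 0.0030). At chr8:70836149-70836448, in an exon of Arrdc2 27700 bp past the Il12rb1 start, BALB/c iNKT2 had 1.79, 1.35 and 1.11 CPM and SKG iNKT2 had 0.297, 0.0918 and 0.337 CPM (log2 change -2.54, SE 0.54, adjusted p = 0.0030). SKG was the lower group without overlap at all 4, which the call on these same libraries favours and which is no separate support. Leaving out BALB/c iNKT2 replicate 1, SKG iNKT2 replicate 2 or SKG iNKT2 replicate 3 left 1 call, and leaving out replicate 1 of both genotypes gave 8. The share of all regions was not computed for these fits.

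Smaller differences in the other direction passed the adjusted p in SKG iNKT2 at several regions open in both genotypes. The Il17rb upstream region chr14:30024311-30024790 rose by 0.52 on the log2 scale (SE 0.12, adjusted p = 0.0059), from 28.0, 28.1 and 30.1 CPM to 40.9, 40.8 and 41.7 CPM. The Il6ra start rose by 0.59 (SE 0.14, adjusted p = 0.0063), and in iNKT1 its change was 0.61 (adjusted p = 0.067). The Il18rap start rose by 0.63 (adjusted p = 0.0095), and the region 10390 bp before it, chr1:40504459-40504972, by 1.11 (adjusted p = 0.0048), with 5.43, 4.15 and 3.17 CPM in BALB/c and 13.3, 7.03 and 6.94 CPM in SKG iNKT2. Against these, the Il1rl1 intron nearest to the start fell by 1.55 on the log2 scale (adjusted p = 0.0011) and the Il6st region 46739 bp downstream by 1.42 (adjusted p = 0.0035), while the Il6st region 25731 bp upstream rose by 0.53 (adjusted p = 0.0095). Scaling to library totals shifted the median of all regions by -0.13 in this comparison.

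**Figure D4:**
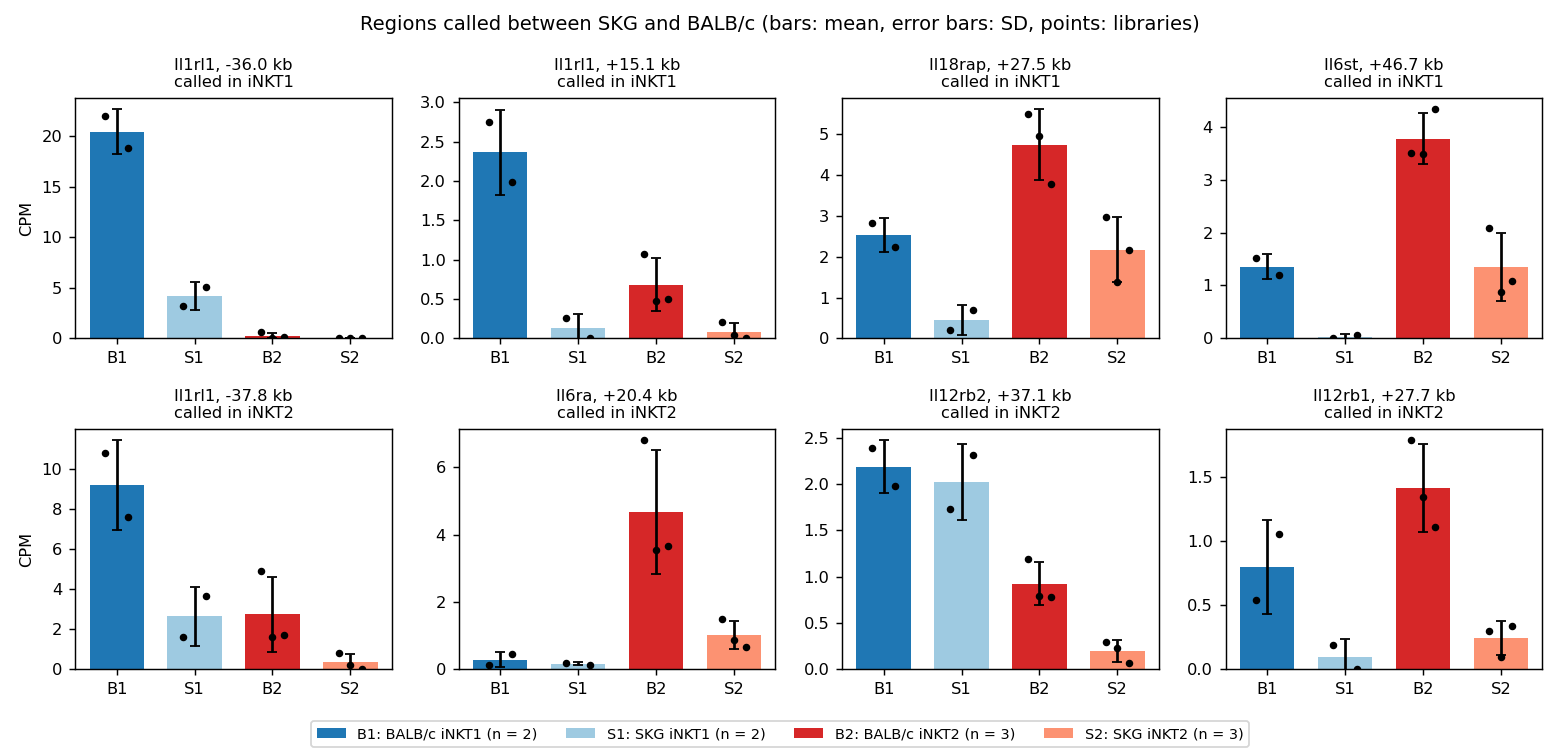
CPM (vertical axis) in the 4 groups of the 8 receptor regions called between genotypes, with points for libraries, bars for the group mean and error bars for the SD, cut at 0. SKG lies below BALB/c without overlap in the subset of each call, which the call itself favours. Of the 4 iNKT2 calls, 3 rest on levels under 5 CPM in every iNKT2 library.

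Whether the genotype change differed between subsets was tested as an interaction. None of the 164 receptor regions was called, higher or lower, against 0.189% and 0.341% of all regions. The smallest adjusted p was 0.026, and at an unadjusted p under 0.05 25 regions were higher and 10 lower, against 10.2% and 9.66% of all regions. DESeq2 called 0 higher and 1 lower, against 0.318% and 1.15%. So calls at different receptor regions in iNKT1 and iNKT2 do not show that the genotypes differ by subset.

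The other genes of these pathways were taken from a list of 27 co-receptors, kinases, adaptors, transcription factors, feedback genes and sheddases, of which 26 had 396 regions and Lifr had none. In BALB/c 55 of these regions were called higher in iNKT2 and 42 lower, and in SKG 46 and 32. As shares these were 13.9% and 10.6% against 15.5% and 6.36% of all regions in BALB/c, and 11.6% and 8.08% against 10.2% and 6.96% in SKG, so the higher calls were near the background. Il1r1, the interleukin-1 receptor and an iNKT17 marker, was called higher at 21 of 25 regions in BALB/c and 20 in SKG. Il23r, which pairs with Il12rb1 and is also an iNKT17 marker, was called higher at 9 and lower at 2 of 16 regions in BALB/c, and at 7 and 2 in SKG. Stat4, the factor that interleukin-12 activates, was called lower at 12 of 23 regions in BALB/c and 8 in SKG, and higher at none. Irak2, a kinase of the interleukin-18 and interleukin-33 pathway, was called lower at 12 and higher at 1 of 23 regions in BALB/c, and lower at 7 in SKG. Irak4 and Traf6 of the same pathway had 4 regions each called higher in BALB/c, of 13 and 9, and none lower. Il17ra, the partner chain of Il17rb, was called lower at 4 of 19 regions and 3 in SKG, and Socs1, a feedback inhibitor, at 5 of 33 and 3. No region of Myd88, Adam10 or Adam17 was called between subsets in either genotype. Between genotypes 0 regions were called higher and 1 lower in iNKT1, and 0 and 9 in iNKT2, 3 of them at Traf6. The lower calls were 0.253% and 2.27% of these regions, against 0.732% and 4.73% of all regions. In the interaction 2 were called higher and 1 lower, or 0.505% and 0.253% against 0.189% and 0.341% of all regions.

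As a description over the 10 libraries, which share their groups, the start regions most like each receptor's were sought by Pearson's r of log2(CPM + 1). For Il12rb2 they were those of Gimap3 (r = 0.997), Adssl1 and Prf1, the last encoding perforin, and 1416 of 9915 starts had r above 0.9. For Il18rap they were Ahnak (r = 0.994), Dusp2 and 2810004N23Rik, with 1938 starts above 0.9. For Il17rb they were Mtss1 (r = 0.990), Sp5 and Nuak1, with 332 above 0.9. For Il6ra they were Cfap74 (r = 0.958), Rnd1 and Thra, with 21 above 0.9, the fewest of the 8 genes. For Il1rl1, by the intronic region, they were Pcdhb3 (r = 0.993), Clstn3 and Smim1. For Il12rb1 they were Slc44a2 (r = 0.971), Ctnna1 and Rnf111, for Il18r1 Olfr525 (r = 0.966), Itgb2 and Oas3, and for Il6st Lsm3 (r = 0.993), Exoc1 and Thap1.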

How the data were processed

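ATAC-seq was performed in 10 libraries of thymic iNKT cells. Following the study's methods section, the authors mapped reads to mm10 by Bowtie, dropped duplicates and mitochondrial reads, called peaks with MACS2, merged them into 1 set and counted insertions. The deposited table held raw counts of insertions per region: whole numbers with column totals that differed, although its name speaks of normalized values. Its 94823 regions were 300 to 7709 bp wide (median 343 bp), mostly narrower than the uniform width in the study's methods, and how they arose was not settled. Totals cover insertions in these regions, not each library's full depth. Peaks were called with these libraries in view, so a region open in no library is not in the table.

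The 8 receptor genes, the list of other pathway genes, the marker lists and the motifs were chosen with earlier results of these data known. An item of these lists is not reported here. Coordinates are 1-based on GRCm38, and genes were taken from GENCODE release M21. The test was made with edgeR 4.0.16 (R 4.3.3): TMM factors over all regions, 1 mean per group over the 10 libraries, quasi-likelihood F tests and Benjamini-Hochberg adjustment over all 94823 regions. Standard errors derive from the F statistic. A region was called at an adjusted p under 0.01 and at least 4-fold. Low-count ratios have exact intervals that cover counting error only. For each gene the text names the region at the start or else the nearest, and the regions with the smallest p in BALB/c iNKT2 against iNKT1 and in each genotype comparison, by rule; other regions were named after their values were seen. The fit was tested on simulated counts with known changes, placed only in regions above a minimum of insertions. By the adjusted p alone it recovered 87% of 4-fold changes between subsets in BALB/c. Between genotypes it recovered 74% of 4-fold changes in iNKT1 and 79% in iNKT2, and 94% and 99% of 8-fold changes. Recovery in regions with fewer insertions was not tested. DESeq2 1.42.0, limma 3.58.1 with voom and quantile normalization, limma on log2 values with a pseudocount of 1, library totals, a minimum of mean insertions at the lower quartile (36.2), other thresholds and windows, fits of the groups compared, omission of each library and a replicate block were alternatives.

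Pairing by replicate number was checked with the correlation, over regions, of deviations from the group means. In iNKT2 same-numbered libraries of the genotypes gave r = 0.494, 0.173 and 0.212, all above 0.1, so a replicate block was run as an alternative, and the results printed come from the fit without it. Libraries numbered 2 and 3 were as alike across numbers (r = 0.194 and 0.297), so the data set replicate 1 apart and do not show the other pairs. In iNKT1 r was -0.00891.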

Additional observations from a re-analysis of the deposited data

Results flagged for a closer look

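Of the regions at the other pathway genes, 3 had a genotype change that differed between the subsets by the interaction test, which is what singled them out. At chr9:21135896-21136250, at -4653 bp from the start of Tyk2, a kinase of the interleukin-12 receptor, the log2 difference was 2.65 (SE 0.38, adjusted p = 0.0020). It had 5.67 and 8.95 CPM in BALB/c iNKT1, 3.40 and 2.82 CPM in SKG iNKT1, 4.17, 4.52 and 3.71 CPM in BALB/c iNKT2 and 14.3, 8.17 and 10.9 CPM in SKG iNKT2. SKG was lower in iNKT1, with a log2 change of -1.22 (adjusted p = 0.027), and higher in iNKT2, with 1.43 (adjusted p = 3.1e-04).

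At chr4:101196430-101196858, 68424 bp into Jak1, the log2 difference was 2.07 (SE 0.35, adjusted p = 0.0052), with group means of 4.35 ± 0.830 CPM (SD, n = 2) in BALB/c iNKT1, 1.61 ± 0.456 CPM (SD, n = 2) in SKG iNKT1, 3.52 ± 0.216 CPM (SD, n = 3) in BALB/c iNKT2 and 5.50 ± 0.710 CPM (SD, n = 3) in SKG iNKT2. At chr4:41652110-41652409, at -47580 bp from the Il11ra1 start, it was -3.67 (SE 0.64, adjusted p = 0.0060), with means of 0.793 ± 0.0615, 2.31 ± 0.0931, 0.885 ± 0.243 and 0.200 ± 0.0948 CPM in the same order. Over the alternatives the largest adjusted p was 0.023 for Tyk2, 0.047 for Jak1 and 0.045 for Il11ra1.

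Groups of 2 and 3 libraries are too small for the search for single outlying libraries made in larger groups.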

How the results depend on the processing

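Counts of called receptor regions between subsets, 35 higher and 25 lower in BALB/c and 32 and 24 in SKG, depended on the setting. Quantile normalization gave 23 higher in BALB/c and 17 in SKG, and the lower-quartile filter 21 in SKG. Regions within 10 kb of the start gave 12 higher and 12 lower in BALB/c and 11 and 10 in SKG from 47 regions, and regions nearest to the member's start 22 and 20 higher from 109, since fewer regions were tested. At adjusted p under 0.05 and 2-fold, 50 were lower in BALB/c and 42 in SKG, and with no fold threshold 59 and 46. Omitting any 1 library gave 29 to 37 higher and 22 to 32 lower in BALB/c, and 22 to 33 and 22 to 29 in SKG. Causes other than the number of regions were not tested. Apart from quantile normalization, no fold threshold, and DESeq2 in iNKT1 and the interaction, shares of all regions were not computed for these settings. In fits without a library a lone library takes its spread from the remaining groups.

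In iNKT1, 4 lower calls became 2 with library totals, 1 with quantile normalization, 2 with the filter, 0 within 10 kb and 0 to 4 with a library omitted. From 0, higher calls became 1 with DESeq2, limma on log2 values, only the groups compared, the looser threshold and both replicate 1 iNKT2 libraries left out, and were 0 to 1 with a library omitted. In iNKT2, 4 lower calls became 1 with quantile normalization, 2 with the filter, 14 with the looser threshold, 8 with no fold threshold, 0 within 10 kb, 8 with both replicate 1 libraries left out and 1 to 6 with a library omitted. Higher calls, 0, became 2 with quantile normalization, 5 with the looser threshold, 9 with no fold threshold and 0 to 1 with a library omitted. Interaction calls lower, 0, became 1 with DESeq2 and with the looser threshold, 2 with both replicate 1 libraries left out and 0 to 2 with a library omitted; higher calls were 0 with any library omitted. Only the groups compared was not run for the interaction, which needs all 4.

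With the replicate block, the pairing by number, counts were 36 and 22 in BALB/c, 31 and 23 in SKG, 1 and 4 in iNKT1, 0 and 5 in iNKT2 and 0 and 1 in the interaction, and 0 and 5 in a block of the iNKT2 libraries only. For the other pathway genes, quantile normalization gave 19 higher in SKG in place of 46, 0 lower in place of 1 in iNKT1, 8 higher in place of 0 in iNKT2, and 1 and 0 in place of 2 and 1 in the interaction. Over single named regions and alternatives, 488 values kept direction and side of the threshold, 16 newly passed it, 39 no longer did and none changed sign. Library totals shifted the median log2 change of all regions by 0.28 in BALB/c and 0.18 in SKG between subsets. Regions under 1 CPM in a group rest on few insertions, which limits the genotype calls most.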
